A study of Mus musculus with 3 samples.

Results

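The miR-99, miR-100 and miR-125 microRNAs (miRNAs, small non-coding RNAs that lower the output of messenger RNAs) are made from 3 paralogous hairpin clusters, each holding a miR-99 or miR-100 hairpin, a let-7 hairpin and a miR-125 hairpin. The 7 members described were picked by name from a table of 1251 mature miRNAs, by a rule that uses no measured value, and the let-7 rows of the same clusters were left out of the set. The 3p rows miR-99a-3p, miR-100-3p, miR-125b-1-3p and miR-125b-2-3p of these hairpins were not on the list of names either, and are described as partners. All 7 names had a row. The table holds 3 small RNA libraries of visceral (epididymal) white fat from C57BL/6J mice, titled 1, 3 and 9. Fed from an age of 5 to 6 weeks, for 11 weeks, all had a high-fat diet with 45% of energy from fat, 20% from protein and 35% from carbohydrate, described as holding 6.75% eicosapentaenoic acid (EPA, a polyunsaturated fat found in fish oil), and were fasted for 4 h before the tissue was taken. There was 1 group and no control diet was analysed here, so no value measures an effect of EPA. Only the titles and a remark on 3 samples per group set the libraries apart as animals. Every test therefore takes these libraries as its replicates, and the spread between them may be technical.

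A miRNA finds its targets mainly through its seed, bases 2 to 8 from the 5′ end. The miR-125 family is the vertebrate relative of lin-4, the founding miRNA of nematodes, and is known for roles in blood stem cells, cell survival and the restraint of brown and beige fat formation. The miR-99 and miR-100 family is known to repress the growth-signalling genes Mtor and Igf1r. Each hairpin is cut into a 5p and a 3p strand, of which 1 is usually loaded into the repressor complex and the other degraded.

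The mature sequences are shown first because the members are told apart by few bases, and because shared seeds define which members are expected to bind the same sites. They are from RefSeq on GRCm38.p6, 5′ to 3′, with the seed in capitals. The first group shares 1 seed and differs outside it.
miR-99a-5p: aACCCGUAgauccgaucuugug
miR-100-5p: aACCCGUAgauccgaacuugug
miR-99b-5p: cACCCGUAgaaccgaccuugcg
The miR-125 5p strands share another seed, which miR-351-5p, a miRNA of chromosome X outside these clusters, also carries.
miR-125a-5p: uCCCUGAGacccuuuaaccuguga
miR-125b-5p: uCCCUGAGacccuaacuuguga
miR-351-5p: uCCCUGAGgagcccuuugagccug
The 3p members follow, with the 3p strands of the paralogous hairpins for comparison.
miR-99b-3p: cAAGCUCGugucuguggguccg
miR-99a-3p: cAAGCUCGuuucuaugggucu
miR-100-3p: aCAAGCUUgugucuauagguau
miR-125a-3p: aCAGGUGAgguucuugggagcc
miR-125b-1-3p: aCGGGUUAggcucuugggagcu
miR-125b-2-3p: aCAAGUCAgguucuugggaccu

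Counting positions from 1 at the 5′ end, miR-99a-5p and miR-100-5p differ by the single substitution U16A. miR-99b-5p differs from miR-99a-5p by 4 substitutions, A1C, U11A, U16C and U21C, none of them in the seed. miR-125a-5p has 24 bases and miR-125b-5p has 22, and the first 13 bases are the same in both. The 3p strands are less alike at the seed: miR-99b-3p shares its seed with miR-99a-3p, whereas miR-125a-3p shares its seed with no other row matched to a sequence. miR-100-5p also holds an 11-base run, guagauccgaa, in common with miR-10a-5p, a more distant relative in which the run starts at position 7 rather than 6. How reads with a mismatch were assigned is not given in the sources used here, so the split between miR-99a-5p and miR-100-5p is uncertain.

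On GRCm38 (the assembly of mm10), GENCODE M21 places all 3 clusters on the plus strand. The chromosome 17 cluster is compact: Mir99b (17830188 to 17830257) lies in an intron of the protein-coding gene Spaca6, Mirlet7e (17830352 to 17830444) also lies in an intron of it, and Mir125a (17830812 to 17830879) overlaps an annotated Spaca6 exon. The whole spans 692 bp. The chromosome 9 cluster spans 50578 bp, with Mir100 (41531425 to 41531504), Mirlet7a-2 and Mir125b-1 (41581926 to 41582002) in introns of the non-coding gene 3110039I08Rik. Mir125b-1 also overlaps an exon of Gm28119, and Mir100 an exon of Gm48742 on the opposite strand. The chromosome 16 cluster spans 47408 bp, with Mir99a (77598936 to 77599000), Mirlet7c-1 and Mir125b-2 (77646273 to 77646343) in introns of the non-coding Mir99ahg. Mir99a and Mirlet7c-1 also lie in an intron of the protein-coding gene Gm11146 on the opposite strand. miR-125b-5p has the same sequence from chromosomes 9 and 16, so its row cannot be divided between the 2 loci.

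All libraries had been scaled to nearly the same set of values before deposit, so how depth differed between them is unknown. What can differ between mice is mainly the rank of a miRNA. The mice had 316 to 336 rows above the floor of the scale. Adipocyte-linked miRNAs were well above the floor in every mouse (5 of 5, with a summed share of 10.9% to 14.5% of the linear value). Endothelial (2 of 2, 0.618% to 0.884%) and stromal (4 of 4, 1.20% to 1.38%) lists were present in full. Of the striated muscle list 2 of 5 were above the floor in every mouse and miR-208a-3p was at it in all, with a summed share of 0.163% in mouse 1 against 3.57% in mouse 3 and 2.79% in mouse 9. In the epithelial list 4 of 7 were above the floor in every mouse (0.0378% to 0.157%), in the leukocyte list 3 of 5 (0.354% to 0.381%, with miR-155-5p at the floor) and in the erythroid list 2 of 3 (0.179% to 0.285%). In the testis and epididymis list 1 of 4 was (0.00733% to 0.00905%), with miR-449a-5p, miR-741-3p and miR-871-3p at the floor.

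All 7 members exceeded the floor in every mouse, and the 5p strands stood far above the 3p strands. Together they held 4.02% ± 0.392 of the summed linear value (SD, n = 3), almost all of it in the 5p strands, since the 3p members held 0.00521% ± 0.00108. The 3p rows that are not members are outside these sums. Of them miR-125b-2-3p held 0.0246%, miR-125b-1-3p 0.0111%, miR-99a-3p 0.00324% and miR-100-3p, at the floor in mice 1 and 3, 3.14e-05%. Values below are deposited levels, log2 of the normalized count plus 10, on which the floor is 3.32.

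miR-125a-5p was the most abundant member, at 15.30 in mouse 1, 15.30 in mouse 3 and 15.56 in mouse 9, a mean of 15.38 ± 0.15. It ranked 15th, 15th and 13th of all rows and held 1.78% ± 0.189 of the summed value. miR-99b-5p, its neighbour on chromosome 17, stood at 14.88, 14.52 and 15.16 in mice 1, 3 and 9, a mean of 14.85 ± 0.32, and held 1.25% ± 0.273. Mouse 9 was the highest for both, and mouse 3 was the lowest for miR-99b-5p alone. miR-125b-5p, the form made by chromosomes 9 and 16, stood at 13.84, 13.94 and 13.69, a mean of 13.82 ± 0.13, and held 0.604% ± 0.0532. Here the order of the mice was turned, with mouse 3 highest and mouse 9 lowest.

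miR-100-5p of chromosome 9 had 12.34, 12.50 and 12.40 in mice 1, 3 and 9, a mean of 12.41 ± 0.08 and a share of 0.227% ± 0.0133. miR-99a-5p of chromosome 16 had 11.65, 11.88 and 11.88, a mean of 11.80 ± 0.13 and a share of 0.149% ± 0.0131. Both were lowest in mouse 1. Far below them came miR-99b-3p with 6.93, 6.30 and 6.72, a mean of 6.65 ± 0.32, and miR-125a-3p with 5.32, 5.20 and 5.76, a mean of 5.42 ± 0.29. Both 3p strands were lowest in mouse 3.

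**Figure D1:**
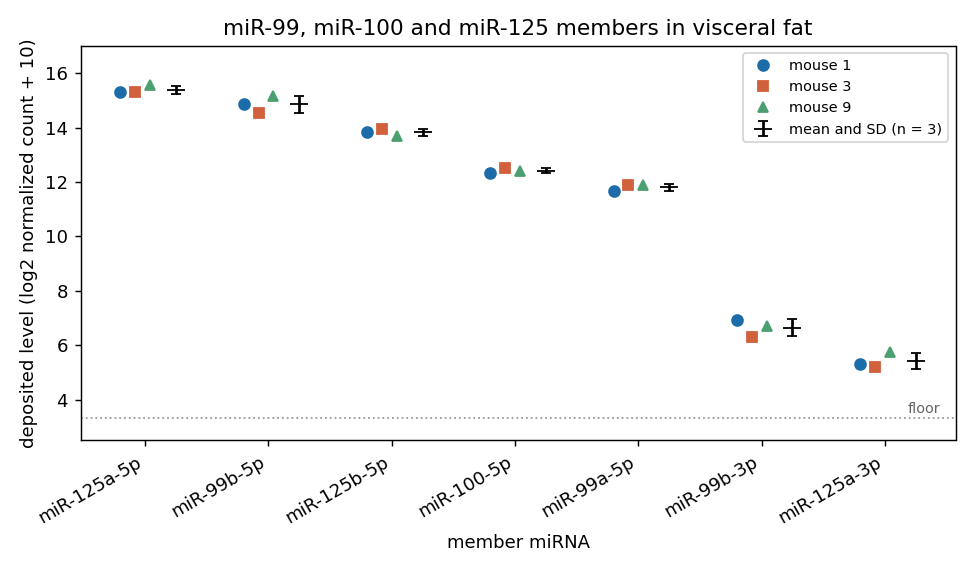
Deposited levels (vertical axis, log2 of the normalized count plus 10) of the 7 members, with 1 point per mouse and the mean and SD over 3 mice in black. The 5p strands lie between 11.65 and 15.56, the 3p strands between 5.20 and 6.93, and no neighbouring pair overlaps.

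The order of the members was the same in every mouse. Of the 6 neighbouring pairs in that order, 0 overlapped: the lowest value of the higher member exceeded the highest value of the lower one. The narrowest margin, 0.14 log2 units, was between miR-125a-5p (lowest 15.30) and miR-99b-5p (highest 15.16). The widest, 4.73, separated miR-99a-5p from miR-99b-3p. Order was also examined by differences within each mouse, for 6 pairs chosen by shared seed or shared cluster. With 3 mice a two-sided exact sign-flip test cannot go below p = 0.25, and all 6 pairs had exactly this value, also after Benjamini-Hochberg adjustment, so none could pass a threshold of 0.05.

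Among the 5p strands with the miR-99 and miR-100 seed, the chromosome 17 form was by far the highest. The difference of miR-99a-5p from miR-99b-5p was -3.23, -2.64 and -3.28 log2 units in mice 1, 3 and 9, an 8.28-fold difference at the mean (mean -3.05 ± 0.36, miR-99a-5p lower in 3 of 3 mice; exact sign-flip p = 0.25). miR-99b-5p was above miR-100-5p by 2.44 ± 0.38, or 5.43-fold, in 3 of 3 mice. The smallest gap in the group was between the pair that differ by U16A, where miR-99a-5p minus miR-100-5p was -0.68, -0.63 and -0.52 (mean -0.61 ± 0.08, 1.53-fold, lower in 3 of 3 mice). As a share of the 3 rows with this seed, miR-99b-5p made up 76.5% ± 4.75, miR-100-5p 14.2% ± 2.99 and miR-99a-5p 9.30% ± 1.80. The miR-99b-5p share was lowest in mouse 3, at 71.1%, against 78.3% in mouse 1 and 80.0% in mouse 9.

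The miR-125 seed showed the same lead of chromosome 17. miR-125a-5p exceeded miR-125b-5p by 1.46, 1.36 and 1.87 log2 units (mean 1.56 ± 0.27, 2.95-fold, 3 of 3 mice; exact sign-flip p = 0.25), although miR-125b-5p is the product of 2 hairpins. miR-125a-5p made up 74.6% ± 3.47 of the members with this seed. Of the other rows with the seed, miR-351-5p had 11.34, 11.05 and 11.41, which made it 4.11% ± 0.438 of the 3 rows miR-125a-5p, miR-125b-5p and miR-351-5p. miR-6367 and miR-6394, which also carry it, stood at the floor in all mice. Over all 7 members, 75.4% ± 3.78 of the linear value came from the 4 rows of chromosome 17.

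**Figure D2:**
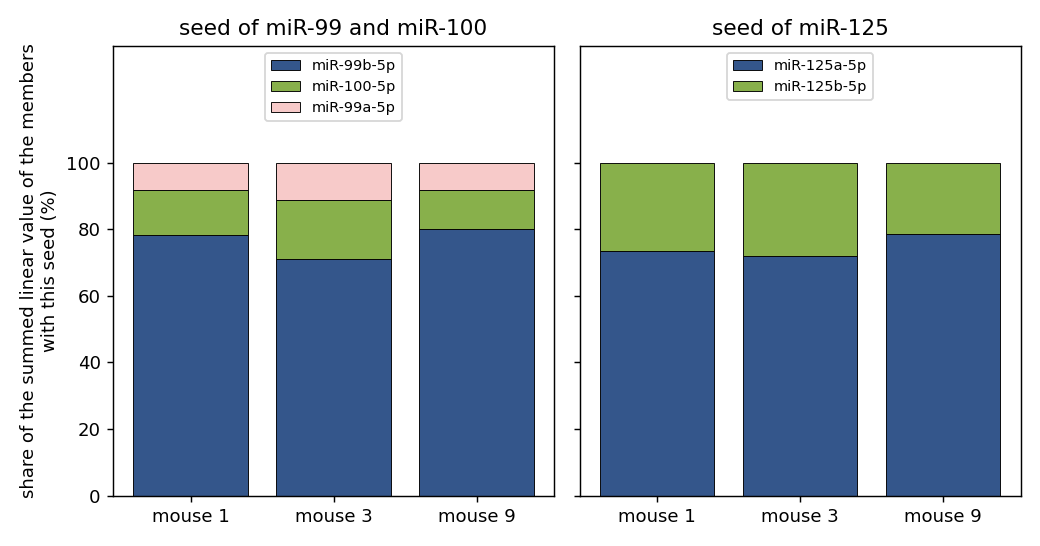
Share (percent, from 0) of the summed linear value of the members with each seed, as 1 stacked bar per mouse. miR-99b-5p takes between 71.1% and 80.0% of its seed and miR-125a-5p between 71.9% and 78.5% of its seed.

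Within the chromosome 17 cluster miR-99b and miR-125a were ranked in opposite order on the 2 strands. On the 5p side the difference of miR-99b-5p from miR-125a-5p was -0.41, -0.78 and -0.39 log2 units (mean -0.53 ± 0.22, lower in 3 of 3 mice), and let-7e-5p (12.50, 12.45 and 12.59) was below both. On the 3p side miR-99b-3p exceeded miR-125a-3p by 1.61, 1.09 and 0.96 (mean 1.22 ± 0.34, 2.33-fold, 3 of 3 mice; exact sign-flip p = 0.25), and let-7e-3p (6.28, 5.92 and 6.55) lay between them in every mouse. The size of the 3p difference depends on the constant on the log scale, being 1.43 with a constant of 1 and 0.52 with a constant of 100.

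Of the 6 rows of this cluster, let-7e included, 5 had their lowest value in mouse 3 alone, and for miR-125a-5p mice 1 and 3 were tied. A lowest value in mouse 3 alone was common in the table: it was found for 123 (42.9%) of the 287 miRNAs above the floor in every mouse, for 39 (46.4%) of the 84 with a mean from 5 to 7.5 log2 units, where the 3p strands lie, and for 76 (39.2%) of the 194 with a mean of at least 100 linear units above the floor. Outside this cluster miR-99a-3p, miR-125b-1-3p, let-7c-5p and let-7a-5p were also lowest in mouse 3 alone, whereas miR-100-5p and miR-125b-5p were highest there. Mouse 3 had the highest summed shares of the adipocyte (14.5%), striated muscle (3.57%), endothelial (0.884%) and epithelial (0.157%) lists, and the part of these in the result was not tested.

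Strand choice was tested over all hairpins with both strands listed whose larger strand averaged at least 100 linear units, 147 of 453. miR-125b has 1 shared 5p row and a 3p row for each locus, so its 3p rows were summed. By limma's moderated one-sample test of the log2 ratio of 5p to 3p, two-sided with Benjamini-Hochberg adjustment, 78 hairpins (53.1%) had the 5p strand higher and 65 (44.2%) the 3p strand higher at an adjusted p below 0.05. All 5 hairpins of these families were among those with 5p higher. The median ratio of the 5 was 8.21, beside 1.56 over all 147 hairpins and 6.03 over the 78 with 5p higher.

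The paralogous hairpins differed from each other in how far they leaned. miR-125a had ratios of 9.98, 10.09 and 9.80 in mice 1, 3 and 9 (mean 9.96, SE 0.15, limma adjusted p = 1.80e-06, 5p higher in 3 of 3 mice). miR-125b, whose 5p strand shares the seed, had ratios of 4.15, 4.26 and 3.77 (mean 4.06, SE 0.17, limma adjusted p = 1.65e-05, 3 of 3 mice). The gap between these 2 ratios was 5.90 ± 0.11 log2 units and was present in 3 of 3 mice. Its size depends on the constant, as miR-125a-3p is near the floor. With constants of 1 and 100 the ratio was 10.30 and 8.33 for miR-125a, and 4.08 and 3.93 for miR-125b. On the linear scale the 3p strand made up 0.0773% ± 0.0127 of the miR-125a hairpin and 5.65% ± 0.981 of miR-125b. The median share of the lesser strand was 0.187% over the 78 hairpins with 5p higher.

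miR-99b had ratios of 7.96, 8.22 and 8.44 (mean 8.21, SE 0.17, limma adjusted p = 2.12e-06, 3 of 3 mice), and its 3p strand was 0.306% ± 0.0557 of the hairpin. miR-99a had ratios of 5.04, 5.80 and 5.26 (mean 5.37, SE 0.21, limma adjusted p = 1.21e-05, 3 of 3 mice), and its 3p strand was 2.16% ± 0.595. The miR-99b ratio exceeded the miR-99a ratio by 2.84 ± 0.39 in 3 of 3 mice. These differences between paralogs were described by their spread over mice and not tested. miR-100 had a mean ratio of 8.99 (SE 0.16, limma adjusted p = 1.80e-06, 3 of 3 mice), but miR-100-3p stood at the floor in mice 1 and 3 and 2.27 linear units above it in mouse 9. This ratio rests on the floor, being 11.84 with a constant of 1 and 5.78 with a constant of 100, and its place relative to miR-99b is therefore not set.

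**Figure D3:**
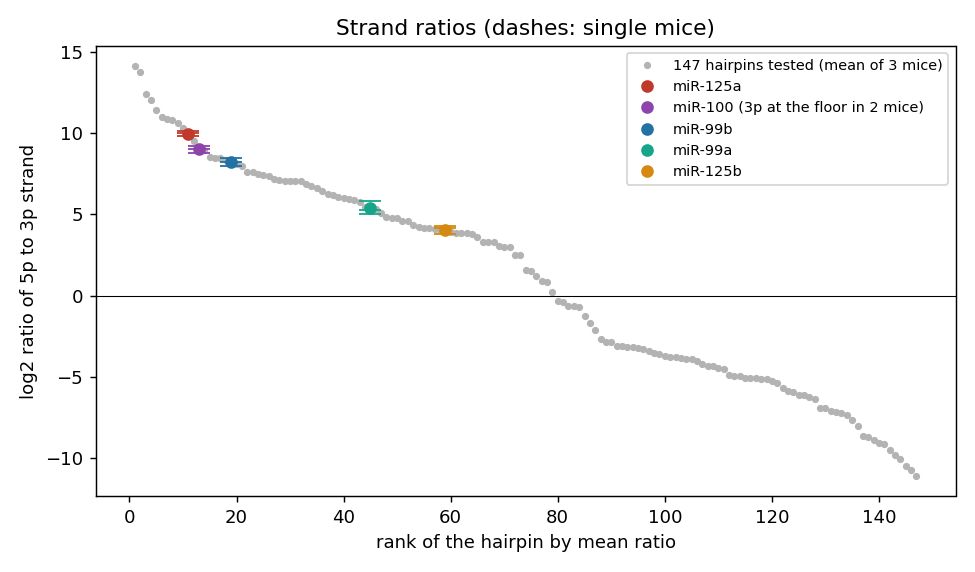
Log2 ratio of 5p to 3p strand (vertical axis) for 147 hairpins ranked from highest to lowest, in grey, with the mean and the single mice of the 5 hairpins of these families in colour. miR-125a (9.96), miR-100 (8.99) and miR-99b (8.21) sit near the 5p end, and miR-99a (5.37) and miR-125b (4.06) lower among the hairpins with 5p higher.

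The lean of each hairpin is the outcome of strand levels that did not move together between paralogs. miR-99b-3p (6.93, 6.30 and 6.72) and miR-99a-3p (6.62, 6.08 and 6.62) differed by 0.21 ± 0.10 log2 units, whereas miR-99a-5p minus miR-99b-5p was -3.05. For miR-125 the direction was opposite on the 2 strands. The difference of miR-125a-3p from miR-125b-1-3p was -2.88, -2.85 and -2.35 log2 units, and from miR-125b-2-3p it was -3.76, -3.94 and -3.70, while miR-125a-5p was above miR-125b-5p in every mouse.

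The loci that share miR-125b-5p have separate rows for their 3p strands. miR-125b-2-3p of chromosome 16 stood at 9.08, 9.15 and 9.45 and miR-125b-1-3p of chromosome 9 at 8.19, 8.05 and 8.11, a difference of 1.11 ± 0.23 log2 units in 3 of 3 mice. miR-125b-2-3p was 68.7% ± 3.48 of both 3p rows together. These 3p strands differ by 5 substitutions, and how far their levels follow the output of each locus was not tested. At the first hairpin of the same clusters miR-99a-3p of chromosome 16 was likewise above miR-100-3p of chromosome 9 in 3 of 3 mice. There miR-100-3p was at the floor in mice 1 and 3. At the middle hairpin let-7c-1-3p of chromosome 16 had 3.32, 3.83 and 3.83, at the floor in mouse 1, and let-7a-2-3p of chromosome 9 was at the floor in all. On the 5p side the order of the first hairpin was the reverse, with miR-100-5p of chromosome 9 above miR-99a-5p of chromosome 16 in 3 of 3 mice. This 5p order rests on the pair that differ by U16A, whose split is uncertain, and on a 1.53-fold difference.

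The let-7 partners of these 2 clusters were the highest rows of the clusters, with let-7c-5p at 16.72, 16.51 and 16.72 and let-7a-5p at 16.51, 16.02 and 16.51, but other hairpins give the same mature sequences. Sequence identity of that kind was visible in the table: let-7c-2-3p and let-7a-1-3p have the same 22 bases and the same value in each mouse.

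**Figure D4:**
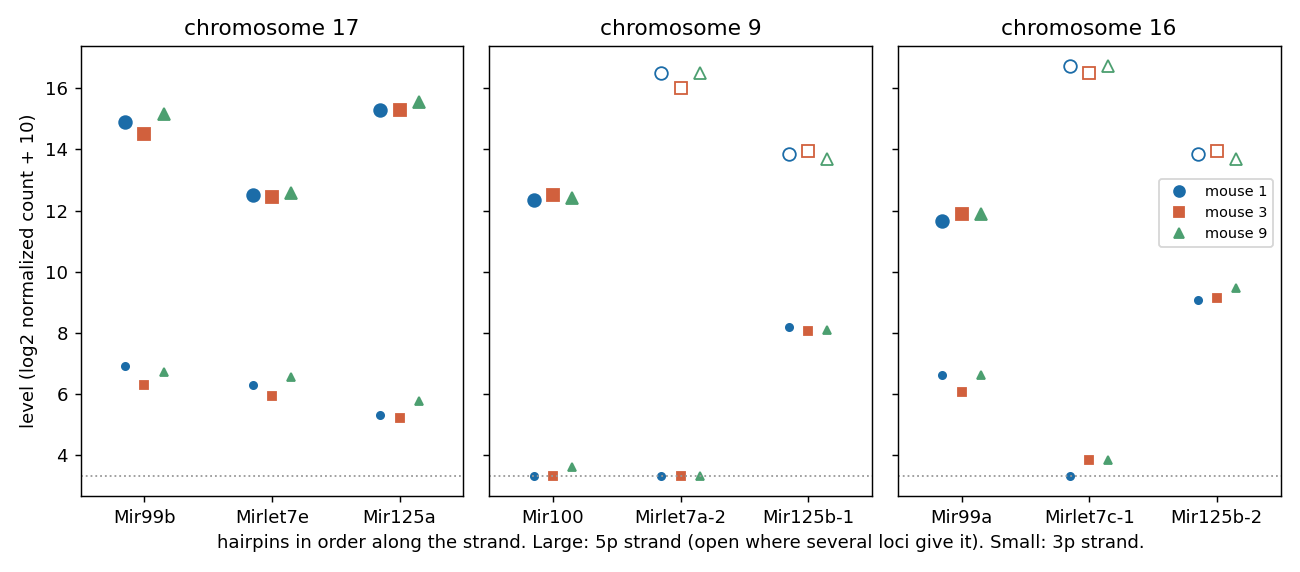
Levels (vertical axis, log2 of the normalized count plus 10) of the 5p strand (large symbols) and 3p strand (small symbols) of each hairpin of the 3 clusters, with 1 symbol per mouse and open symbols where several loci give the 5p strand. On chromosome 17 the 5p strand is highest at Mir125a and the 3p strand at Mir99b, and the 3p strands of Mir100 and Mirlet7a-2 lie at or just above the dotted floor.

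The spread of the members between mice was set beside the median SD of the miRNAs that passed a level. Of the 7 members 5 passed the level of 100 linear units, and their SD over the 3 mice was 0.08 for miR-100-5p, 0.13 for miR-125b-5p, 0.13 for miR-99a-5p, 0.15 for miR-125a-5p and 0.32 for miR-99b-5p. The median SD of the 194 miRNAs at this level was 0.22, and 4 of the 5 lay below it. miR-99b-5p, with the 134th smallest SD of the 194, was the member above it. As many miRNAs lie below a median as above it, so with 5 rows and 3 mice this count is a description only. Without mouse 3 it was 3 of 5. All 5 also passed 1000 linear units, and 4 of the 5 lay below the lower median of 0.19 for the 90 miRNAs at that level. The 2 members that did not pass, miR-99b-3p and miR-125a-3p, had SDs of 0.32 and 0.29, beside a median of 0.44 for the 84 miRNAs with a mean from 5 to 7.5 log2 units.

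Likeness between mice was measured as the root mean square difference of log2 deviations from each miRNA's own mean, which over 3 mice is a description only. miR-99a-5p was closest to miR-30d-5p (0.0018) and miR-130a-3p (0.021), and miR-100-5p to miR-16-5p (0.0022) and miR-27b-3p (0.024). miR-125a-5p was closest to miR-652-3p (0.0070) and miR-30a-3p (0.030), and miR-125b-5p to the identical rows miR-28a-5p and miR-28c (0.018 each). Among the rows compared, miR-99b-5p had its nearest matches further off, in miR-151-5p (0.055) and miR-484 (0.057). Its cluster partner let-7e-3p was below the level required. The deviations of let-7e-3p were 0.03, -0.33 and 0.30 log2 units in mice 1, 3 and 9, beside 0.03, -0.34 and 0.31 for miR-99b-5p. In the same cluster let-7e-5p, which was compared, deviated by -0.01, -0.06 and 0.07. The members miR-125a-5p and miR-99b-3p of this cluster deviated by -0.09, -0.09 and 0.17 and by 0.28, -0.35 and 0.07. For the 3p strands the nearest were miR-744-5p (0.015) and miR-223-3p (0.021) for miR-99b-3p, and let-7b-3p (0.026) and miR-324-5p (0.027) for miR-125a-3p. The identical rows let-7a-1-3p and let-7c-2-3p, also below the level required, deviated by -0.10, -0.20 and 0.31, beside -0.11, -0.22 and 0.33 for miR-125a-3p. None of the nearest rows listed is from the 3 clusters, but the members and the lower cluster partners, such as let-7e-3p, were not among the rows compared. Whether rows of a cluster vary together was therefore not tested.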

How the data were processed

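Per the labels' protocols, total RNA of snap-frozen epididymal fat was made into Illumina small RNA libraries. Per the series' design text, the authors ran the Gunaratne pipeline, aligned some 13.8 M reads from each library to mm10 (a mouse build also in the submitters' processing notes), scaled counts to the total of usable reads and then added 40. Which aligner and miRNA annotation were used is not given in the sources used here. Deposited log2 values have a floor that equals 10 once unlogged, with 260 values above it but under 40, so the constant they hold is not 40. Of 336 ranks above the floor, 121 have equal values in the 3 mice (tolerance 1e-06), as after quantile normalization, which no source states.

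Linear values were the power of 2 minus 10. Strand ratios were tested with limma 3.58.1 (R 4.3.3), a method also checked on simulated data, and pairs with exact sign-flip tests. Python 3.11.15, numpy 2.4.6, pandas 2.3.3 and matplotlib 3.10.9 were used. Ranks are over 1251 rows. Sequences were matched by name for 1001 rows and all 7 members. Named beyond the members were their cluster partners, rows sharing a seed, and the 2 nearest rows in likeness; miR-10a-5p, let-7c-2-3p and let-7a-1-3p were added after their values were seen. The rule for members names them and reads no value, but members and lists were chosen with earlier results of these data known. Alternatives were other constants (1, 40, 100), filters, priors, median-ratio scaling, counting identical rows once and leaving out each mouse.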

Additional observations from a re-analysis of the deposited data

How the results depend on the processing

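Of 196 values recomputed under the alternatives, 12 moved by over 1.5 times, of which 8 were SDs of single members. Only the strand ratios and pair differences have a direction, and 0 of these reversed. The pair tests could not reach 0.05 under any alternative, so only the members' strand tests could change side of the threshold, and 0 did. With a constant of 100 the miR-100 strand ratio fell from 8.99 to 5.78 and miR-99b-3p minus miR-125a-3p from 1.22 to 0.52. With the larger strand required to average at least 1000 linear units, 48 hairpins had 5p higher and 32 had 3p higher, since fewer hairpins were tested. All 5 hairpins of these families kept an adjusted p below 0.05 in limma under each alternative. Leaving out each mouse gave 74 to 79 hairpins with 5p higher and 58 to 62 with 3p higher. SDs over 3 mice are loose. Leaving out each mouse, the SD of miR-99a-5p ranged from 0 (without mouse 1) to 0.16 and that of miR-125a-5p from 0 (without mouse 9) to 0.18, because the remaining mice had equal values. It ranged from 0.042 to 0.12 for miR-100-5p, 0.20 to 0.45 for miR-99b-5p and 0.15 to 0.45 for miR-99b-3p, lowest without mouse 3. It ranged from 0.074 to 0.18 for miR-125b-5p and 0.080 to 0.39 for miR-125a-3p, lowest without mouse 9. Median-ratio scaling raised the SD of miR-100-5p from 0.084 to 0.14. Without mouse 3, 3 of 5 members had an SD below the median, against 4. No analysis paired across groups was possible because there was 1 group. The differences within a mouse are between miRNAs of 1 library. How evenly each sequence was captured in the libraries was not tested. How depth differed between libraries is unknown, which limits the low 3p strands most.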
